A study of Mus musculus with 10 samples.

Results

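Voltage-gated sodium and calcium channels open when the membrane of a cell is depolarised. Their pore-forming (alpha) subunits and auxiliary subunits are described here in the mouse spinal cord. The genes were chosen by symbol, as every row of the deposited table whose name begins with Cacna, Cacnb or Cacng and a digit, or has the form Scn, a number and the letter a or b. The rule found 40 genes of the 25232 in the table, and each of them had a base mean above 0. Of these, 20 encode pore-forming subunits (10 of sodium channels and 10 of calcium channels) and 20 encode auxiliary subunits.

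RNA of the spinal cord was sequenced from 10 female mice of 90 days, 5 wild type (WT) and 5 SOD1-G93A. The SOD1-G93A mouse carries many copies of a human SOD1 transgene with a mutation found in amyotrophic lateral sclerosis (ALS), a disease in which motor neurons degenerate, and the study placed this age at an early symptomatic stage. The labels give the strain as C57BL/6 and the methods a C57BL/6J background, and the methods name the lumbar region. The study asked which genes differ between the genotypes, and the table gives for each gene that comparison and a single level, the base mean. The base mean is the mean over all 10 libraries, WT and SOD1-G93A together, of the read counts after the authors divided them by a size factor for each library. The values of the comparison belong to the authors and were not used here, so the levels below describe the 10 mice as 1 pool, with no spread between mice and no test between genotypes.

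The sodium channel alpha subunit folds into 4 repeats around a sodium-selective pore and carries the upstroke of the action potential, and its beta subunits are single-span membrane proteins that modify gating and bind adhesion molecules. Calcium channels of the high-voltage-activated (HVA) group combine an alpha1 pore with an intracellular beta subunit and an alpha2delta subunit, and they couple depolarisation to transmitter release, gene expression and muscle contraction. The T-type calcium channels open at lower voltage and can work without auxiliary subunits. Most gamma subunits are better known as transmembrane AMPA receptor regulatory proteins (TARPs), which attend glutamate receptors. In motor neurons and other neurons of the cord, sodium channels cluster at the axon initial segment and at the nodes of Ranvier.

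The pore loops carry the residues that choose the ion, and they are shown first because they separate the channel groups whose levels follow. Each pore-forming protein has 4 such loops. The sequences below are 27 bases of the coding sequence of the longest complete coding transcript in the GENCODE M21 annotation (GRCm38, the mm10 build), 5′ to 3′ on the strand of the gene. In the repeat I loop of the sodium channels, the codon printed in capitals follows the aspartate codon of the selectivity filter. It encodes a residue known to set the affinity for tetrodotoxin, the pufferfish toxin: an aromatic residue goes with high affinity, and serine with low affinity.
Scn2a: cttatgactcaagacTTCtgggaaaac
Scn8a: ctcatgactcaggacTACtgggagaac
Scn10a: ctcatgacgcaggacTCCtgggaacgg
Scn11a: gttatgactcaagacTCCtgggagaag
The stretch of Scn2a lies in exon 9 at chr2:65688421-65688447 on the plus strand, and that of Scn8a in exon 9 at chr15:100971623-100971649 on the plus strand. The stretches of Scn10a and Scn11a lie at chr9:119666378-119666404 and chr9:119805671-119805697. The codon encodes phenylalanine in Scn2a, tyrosine in 5 genes (Scn3a, Scn4a, Scn7a, Scn8a and Scn9a) and serine in Scn10a and Scn11a.

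The filter itself differs between sodium and calcium channels. Below, the codon in capitals is the filter position of repeat III for the sodium channels and of repeat IV for the calcium channels.
Scn8a, repeat III: gtggcaaccttcAAAggctggatggac
Scn7a, repeat III: gtggcaacatttAATggatggatcagt
Cacna1a, repeat IV: agcgccacaggaGAAgcgtggcacaac
Cacna1g, repeat IV: gtctccactggtGACaactggaatggt
The filter codons of 9 sodium channel genes encode aspartate, glutamate, lysine and alanine in repeats I to IV. Scn7a, which is known as a sodium-sensing channel of glia and not as a voltage-gated one, has asparagine in place of lysine and serine in place of alanine. The 7 HVA calcium channel genes encode glutamate at all 4 positions, and the 3 T-type genes encode glutamate in repeats I and II and aspartate in repeats III and IV. The Cacna1a stretch lies in exon 35 at chr8:84611599-84611625 and the Cacna1g stretch in exon 32 at chr11:94416415-94416441. The positions were found in Scn8a, Cacna1a and Cacna1g by their known residues and carried to the other genes by alignment.

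Levels are given as the base mean per kilobase (kb) of the summed exon length of the gene, since a longer transcript yields more fragments. The ± value is the counting standard error (SE) of the level, which covers the sampling of reads and not the spread between mice. The 17700 protein-coding genes with a base mean above 0 and a known length served as the background, and their median was 84.3 per kb, with quartiles of 11.9 and 248. The median of the 40 channel genes was 133 per kb, and 25 of them were at or above the background median. Auxiliary subunits stood higher than pore-forming subunits: 16 of 20 auxiliary genes and 9 of 20 pore-forming genes were at or above that median, and their own medians were 235 and 73.0 per kb. By base mean without length the groups were closer, with 15 and 12 of 20 genes at or above the median and medians of 1107 and 934. Auxiliary genes made up 79.0% of the summed level of all 40 per kb, and 54.2% of the summed base mean. The gamma genes, most of them TARPs, are counted as auxiliary here and held 2544 of the 11714.5 per kb of that group. Over the 4 length scales (summed exons, longest transcript, coding sequence and no length), 20 of the 40 genes were at or above the background median on each scale and 11 were below it on each. The side of the median turned with the scale in the other 9, which were Scn3a, Cacna1c, Cacna1d, Cacna1h, Cacna1i, Cacnb2, Cacng3, Cacng5 and Cacng8. The exon length was longer in the pore-forming genes, with a median of 10039.5 bases against 4592.5.

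**Figure D1:**
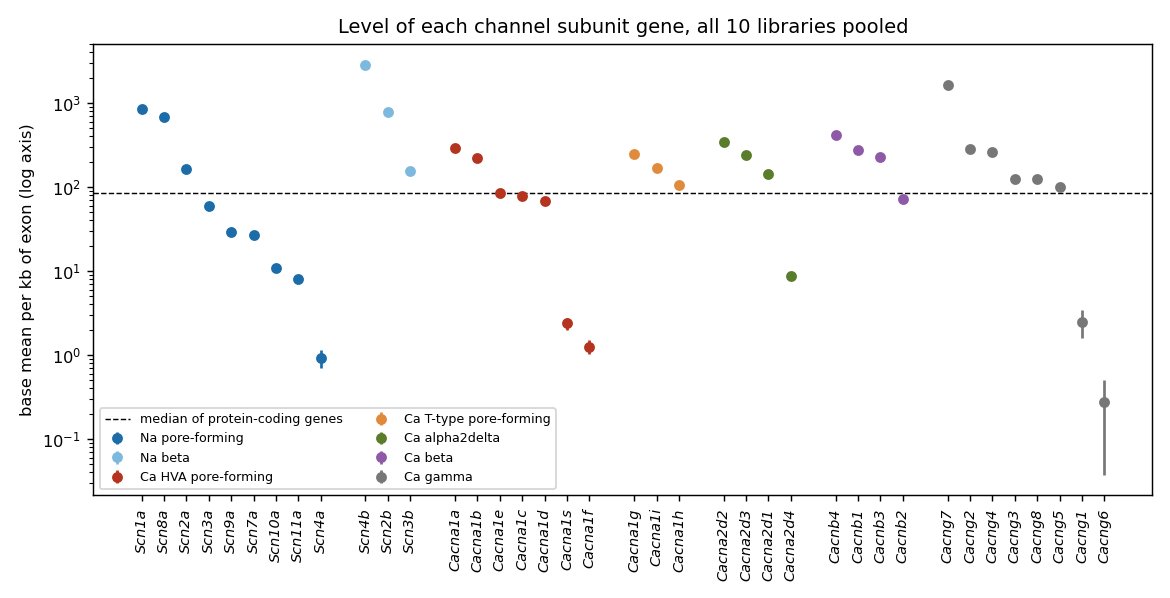
Level of 38 of the 40 genes by subunit class, as base mean per kb of summed exons on a log axis, with all 10 libraries pooled. Bars are 2 counting SE to each side, mostly smaller than the points, and the dashed line is the median of the protein-coding genes (84.3 per kb). Scn4b (2847 per kb) is the highest point drawn and Cacng6 (0.272 per kb) the lowest.

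Among the sodium channel alpha subunits, Scn1a and Scn8a held 83.55% of the summed level of the 10 genes, and Scn2a held a further 8.79%. Scn1a, known from fast-spiking interneurons and as the main gene of Dravet epilepsy, had a base mean of 9536 and a level of 855.5 ± 2.77 per kb. Scn8a, the main alpha subunit of mature initial segments and nodes of Ranvier, had a base mean of 10797 and a level of 685 ± 2.09 per kb. The order of this pair depended on the length used, because the annotated exons of Scn8a sum to more bases than those of Scn1a. The level of Scn8a was 0.801 times that of Scn1a per kb of summed exons, and 1.13 times by base mean alone. Scn2a, the alpha subunit of unmyelinated axons and immature nodes, stood at 162 ± 1.13 per kb, so that Scn1a was 5.28 times higher.

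The other 7 alpha subunits together held 7.66% of the class. Scn3a, prominent in the embryonic nervous system, had a level of 58.7 ± 0.69 per kb. Scn9a, known from pain-sensing and sympathetic neurons, stood at 29.1 ± 0.48 per kb, and Scn7a at 26.5 ± 0.60 per kb. These 3 genes lay between the lower background quartile of 11.9 and the median of 84.3 per kb. The remaining 4, among them the 3 described next, were below the lower quartile of the background. Scn10a, the tetrodotoxin-resistant channel of nociceptors, had a base mean of 86.9 and a level of 10.9 ± 0.37 per kb, and Scn11a, its relative in the same neurons, had a base mean of 47.3 and a level of 7.98 ± 0.37 per kb. Scn4a, the skeletal muscle channel, was the lowest alpha subunit, with a base mean of 6.47 and a level of 0.919 ± 0.11 per kb.

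Read through the repeat I codon shown above, the 7 genes with an aromatic residue at the tetrodotoxin position held 98.6% of the summed alpha subunit level. The tyrosine codons accounted for 43.4%, and the serine codons of Scn10a and Scn11a for 1.02%. Scn7a, the gene whose filter departs from the others, held 1.44%.

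The 4 sodium channel beta subunits were the class with the highest levels, with a median of 1814 per kb. Scn4b, whose protein binds the alpha subunit through a disulfide bond and is linked to resurgent current, stood at 2847 ± 7.57 per kb and had the highest base mean of all 40 genes, at 14182. Scn2b, which also forms a disulfide bond with the pore, stood at 781 ± 4.10 per kb. Scn3b stood at 152 ± 1.67 per kb, and Scn4b was 18.7 times higher. The summed level of the beta subunits was 4.04 times that of the alpha subunits per kb, and 1.07 times by base mean.

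**Figure D2:**
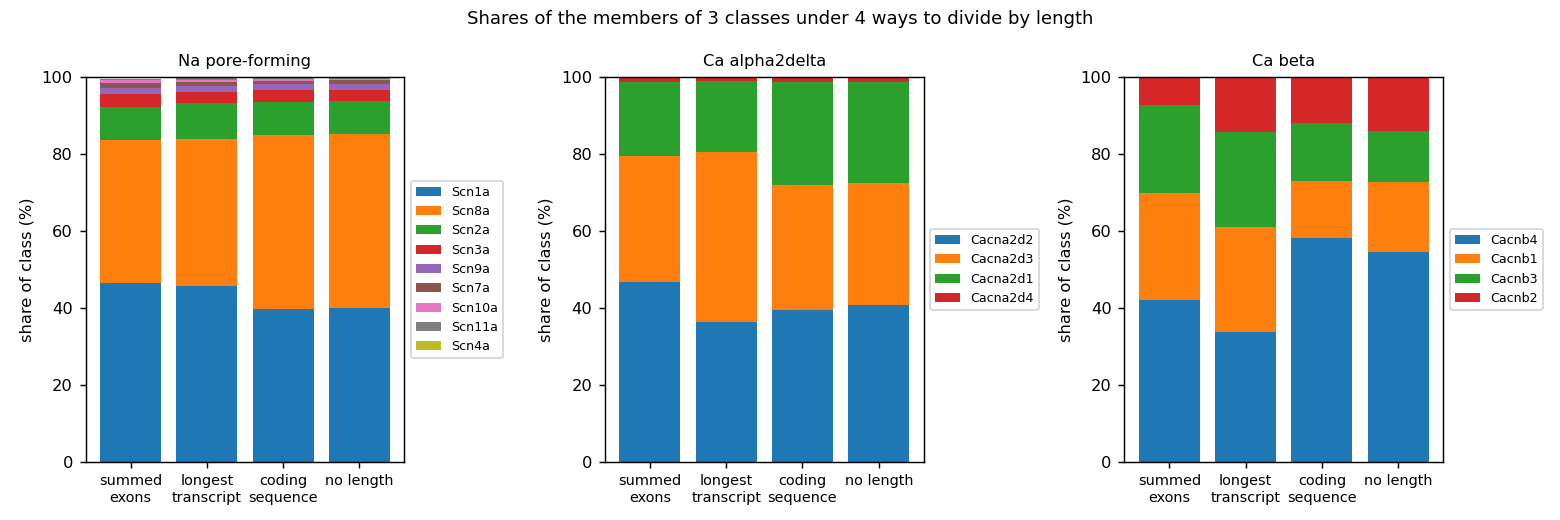
Share of each member in its subunit class, in percent, for 3 classes (panels) under 4 ways to divide the base mean by length (bars; the stacked colours are genes). The sodium alpha panel shows its 4 leading genes and Scn4a, Scn7a, Scn9a, Scn10a and Scn11a, and its leading gene changes from Scn1a (46.4% per kb of summed exons) to Scn8a with no length.

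The HVA calcium channel pores were led by the presynaptic channels. Cacna1a, the P/Q-type pore that drives release at most central synapses and at the neuromuscular junction, stood at 289 ± 1.59 per kb. Cacna1b, the N-type pore and the target of ziconotide, stood at 223 ± 1.50 per kb. These 2 genes held 68.6% of the summed HVA level per kb of summed exons. Cacna1e, the R-type pore, was close to Cacna1b by base mean, at 2150 against 2218. Per kb of coding sequence the 2 genes stood at 315 and 318. Per kb of its long summed exons, Cacna1e stood at 85.2 ± 0.58, just above the background median. The neuronal L-type pores stood just below it on this scale, with Cacna1c at 78.4 ± 0.61 and Cacna1d at 67.6 ± 0.73 per kb. By base mean both were above the median, and Cacna1c was also above it per kb of the longest transcript. Cacna1s, the L-type pore of skeletal muscle, had a base mean of 15.6 and a level of 2.38 ± 0.19 per kb, and Cacna1f, that of retinal photoreceptors, had a base mean of 11.4 and a level of 1.25 ± 0.12 per kb. Both lay below the lower quartile of the background.

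The T-type pores spanned 2.36-fold from the highest to the lowest, against 230-fold among the HVA pores and 931-fold among the sodium channel alpha subunits. These ranges are over 3, 7 and 10 genes, and a range tends to widen with the number of genes. The low end of the HVA range was set by the retinal and muscle pores Cacna1f and Cacna1s, and the next lowest, Cacna1d, stood at 67.6 per kb. Cacna1g stood at 245 ± 1.56 per kb, Cacna1i at 169 ± 1.31 and Cacna1h at 104 ± 1.03, and all 3 were above the background median per kb of summed exons. Per kb of coding sequence only Cacna1g remained above it. Of the summed level of the 10 calcium channel pores, the P/Q-, N- and R-type genes held 47.2%, the T-type genes 40.9% and the L-type genes 11.8%. The T-type share was 33.6% and the L-type share 16.5% when the base means were summed without length.

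The alpha2delta subunits carry HVA channels to the membrane, and some of them bind gabapentin and pregabalin. Cacna2d2 led the class at 343 ± 2.08 per kb. Cacna2d3 followed at 242 ± 1.67 and Cacna2d1, a gabapentin target in pain pathways, at 142 ± 1.07 per kb. Cacna2d4, which serves the retinal L-type channel, had a base mean of 82.4 and a level of 8.70 ± 0.30 per kb, 39.5 times below Cacna2d2. On the scale of the longest transcript, Cacna2d3 was 1.22 times higher than Cacna2d2, while on the other 3 scales it was lower.

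The calcium channel beta subunits bind the linker between repeats I and II of the HVA pore and bring it to the membrane. Cacnb4, the gene mutated in the lethargic mouse, stood at 418 ± 2.16 per kb. Its exons overlap on the opposite strand those of A430018G15Rik over 16.0% of their length. The libraries were made with a stranded kit, while the strand setting of the counting is not given in the sources used here. Cacnb1, the beta subunit of the skeletal muscle channel that neurons also express, stood at 277 ± 2.48 per kb, Cacnb3 at 227 ± 2.38 and Cacnb2, the main cardiac form, at 72.7 ± 0.74 per kb. The class spanned 5.75-fold, and Cacnb4 was the highest on each of the 4 length scales.

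The gamma family held both a gene near the top and the lowest gene of all 40. Cacng7, a TARP of the second type, stood at 1648 ± 8.23 per kb and held 64.8% of the class. Cacng2 (stargazin, the gene mutated in the stargazer mouse) stood at 284.5 ± 2.28 per kb and Cacng4 at 260 ± 2.70. Cacng3 and Cacng8 stood at 124 ± 2.12 and 124 ± 2.30 per kb, within the counting error on this scale. Cacng3 was higher by base mean, at 345 against 291, and per kb of coding sequence, at 365 against 229, while Cacng8 was higher per kb of the longest transcript, at 153 against 124. Cacng5, the closest relative of Cacng7, stood at 100.5 ± 1.62. The 6 TARP genes held 99.9% of the class. The other 2 are the gamma subunit of the skeletal muscle channel, Cacng1, with a base mean of 3.11 and a level of 2.49 ± 0.45 per kb, and Cacng6, with a base mean of 0.538. That value equals exactly 5 reads, spread over 4 libraries with at most 2 in any of them.

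**Figure D3:**
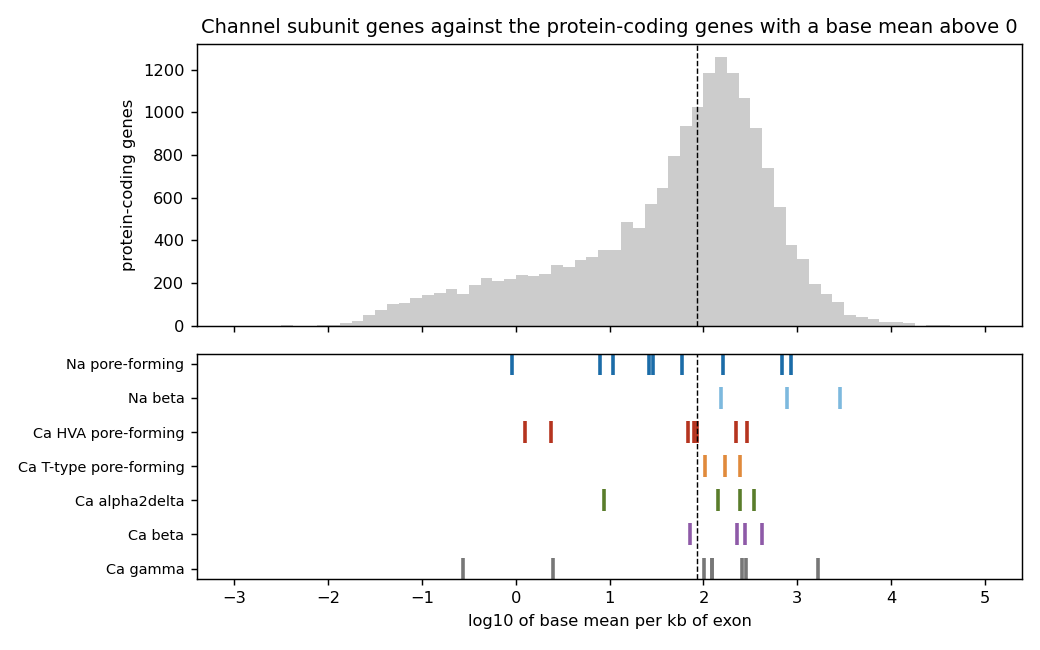
Top, histogram of log10 base mean per kb over the 17700 protein-coding genes of the background (y axis, number of genes); bottom, each channel gene as a tick by class. The dashed line is the background median of 84.3 per kb. Of the channel genes, 38 are drawn; the sodium beta ticks lie to the right of the line, and the sodium alpha ticks spread over both sides, with 3 at or above it.

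In the order of levels per kb of summed exons over all 40 genes, 8 of the 39 neighbouring pairs differed by less than 2 counting SE of their difference. Apart from Cacng3 and Cacng8, these included Cacna1a and Cacng2, Cacna1g and Cacna2d3, Cacnb3 and Cacna1b, Cacna1h and Cacng5, Cacna2d4 and Scn11a, and Cacng1 and Cacna1s. The counting SE was below 2% of the level in 30 genes, and it reached 43.2% in Cacng6. Since the SE leaves out the spread between mice, a wider gap than this does not show that a pair would differ in each animal.

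The 9 genes below the lower quartile of the background included Cacng6 and several genes known mainly from tissues outside the cord, with Scn10a and Scn11a from sensory ganglia, Scn4a, Cacna1s and Cacng1 from skeletal muscle, and Cacna1f and Cacna2d4 from retina. Their highest level was 10.9 per kb, 2.43 times below that of the next gene, Scn7a. Markers of those tissues were counted from fixed lists. Of the nociceptor markers, 0 of 3 reached the background median, with Avil at 21.1, Trpv1 at 4.05 and Mrgprd at 2.80 per kb. Of the skeletal muscle markers, 1 of 4 did, with Acta1 at 163, Tnnt3 at 68.9, Ckm at 36.9 and Myh4 at 33.8 per kb. The heart markers Myh6 and Tnni3 stood at 53.2 and 10.4 per kb. The part of such tissue in the levels of these channels was not tested.

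The tissue label was checked in the same way. The markers of neurons (Rbfox3, Snap25, Syt1 and Tubb3) ranged from 601 to 8695 per kb, and 4 of 4 lay above the background median. Of the motor neuron markers, 3 of 5 did: Prph at 712, Slc5a7 at 410 and Chat at 156 per kb, while the transcription factors Mnx1 and Isl1 stood at 16.6 and 11.5. All 4 markers each of oligodendrocytes, astrocytes and microglia were above the median, from 3138 to 37739.5, from 431 to 4207 and from 207 to 1458 per kb. In these bulk samples, fewer cells of a type and less RNA per cell cannot be told apart. Counts were 3 of 3 for endothelium and for mural cells, 1 of 2 for oligodendrocyte precursors and for ependyma, 1 of 3 for meningeal fibroblasts and 2 of 3 for Schwann cells. The blood markers Hbb-bs and Hba-a1 were listed at 0. Only uniquely mapped reads were counted, so this value does not by itself show that blood was absent.

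Genes whose proteins work with these channels were taken from a fixed list. Of 11 partners of sodium channels, 10 were at or above the background median. The node and initial segment proteins Nfasc and Cntn1 stood at 1268 and 1215 per kb, Nrcam at 473, the spectrin Sptbn4 at 528, and the ankyrins Ank2 and Ank3 at 632 and 234. The intracellular fibroblast growth factor homologues, which bind the tail of the alpha subunit, descended from Fgf12 at 659 through Fgf11 at 540 and Fgf13 at 361 to Fgf14 at 135 per kb. Nedd4l, a ubiquitin ligase that removes sodium channels, was the gene below the median, at 69.8.

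Of 17 partners of calcium channels, 9 were at or above the median. The calmodulin genes Calm2 and Calm3 stood at 11091 and 11772 per kb, and the active zone proteins Rims1, Rimbp2 and Rims2 at 334, 194 and 187. The adaptor Stac2 stood at 910, against 61.8 for Stac and 24.6 for the muscle form Stac3. The calcium-binding protein Cabp1 stood at 316. The 4 small GTPases that bind the beta subunit and restrain HVA channels were all below the median, with Gem at 47.6, Rem2 at 29.5, Rrad at 18.4 and Rem1 at 7.92 per kb. Of the ryanodine receptors, the calcium release channels of the endoplasmic reticulum, Ryr2 stood at 145, Ryr3 at 70.6 and the skeletal muscle form Ryr1 at 4.88. The sodium leak channel, a relative of these families, and its partners were at or above the median in 3 of 3 genes, with Unc80 at 653, Nalcn at 185 and Unc79 at 87.0 per kb.

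Similarity of the proteins and level did not go together in a simple order. Sequences were translated and aligned without a penalty for gaps at the ends, and identity is the percent of aligned residues. The sodium channel alpha subunits were 40.6% to 88.1% identical, over 45 pairs. The closest pair was Scn1a and Scn2a, at 88.1% identity and a level ratio of 5.28. Scn4a was 74.5% identical to Scn1a, and its level was 931 times lower. Scn1a and Scn8a, which are 78.6% identical, had a level ratio of 1.25. The HVA pores were 44.7% to 69.7% identical to each other and 30.0% to 33.3% identical to the T-type pores. Calcium channel pores shared 26.6% to 33.6% with sodium channel pores. The calcium channel beta subunits were 63.1% to 73.0% identical. Cacng5 and Cacng7 were 71.6% identical with a level ratio of 16.4.

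**Figure D4:**
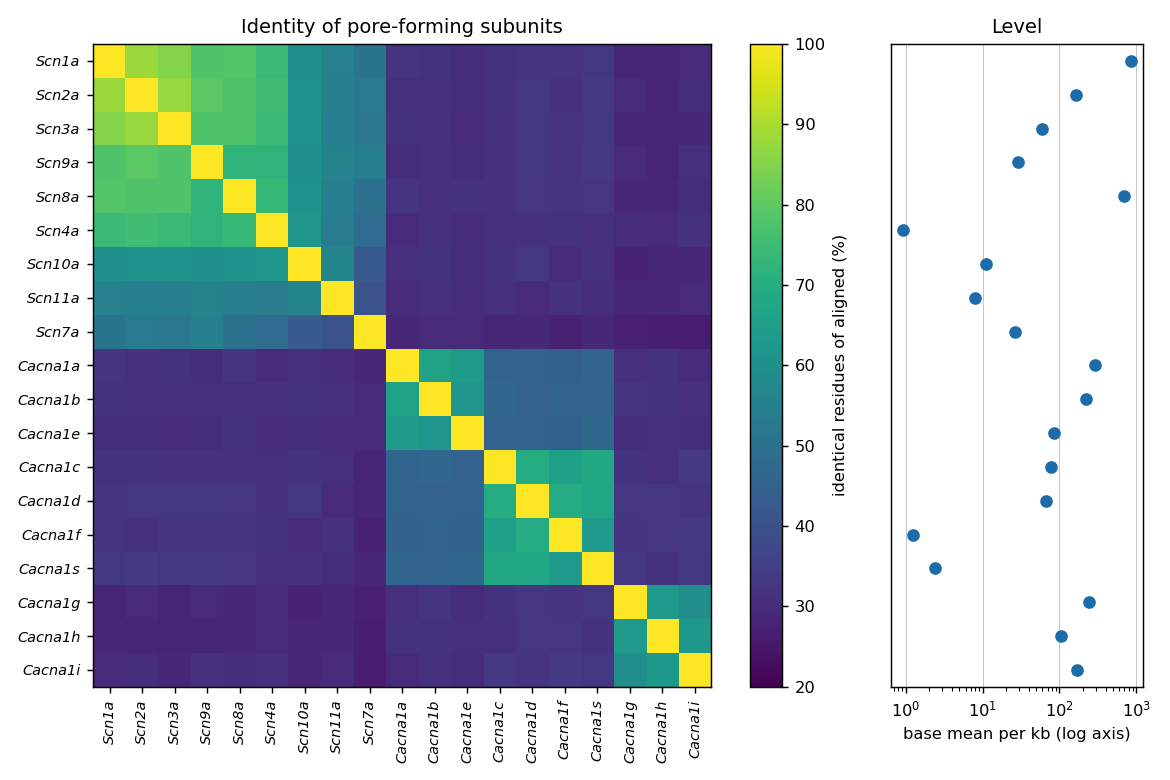
Left, percent of aligned residues that are identical between each pair of 19 pore-forming subunits (colour scale from 20% to 100%); right, the level of the same genes in the same order, in base mean per kb on a log axis. The sodium, HVA calcium and T-type calcium genes form 3 blocks, and within the sodium block Scn1a at 855.5 and Scn4a at 0.919 per kb are 74.5% identical.

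Several of these genes lie near each other in the genome, and some neighbours differed widely in level. Neighbours here are consecutive members on a chromosome, whatever other genes may lie between them. The 40 genes lie on 12 chromosomes, and 13 neighbouring pairs are less than 510 kb apart. The limit takes in Scn2a and Scn1a, which are 503330 bases apart. On chromosome 2, Scn3a, Scn2a, Scn1a, Scn9a and Scn7a form a cluster. Scn1a and Scn9a are separated by 39239 bases, and the level of Scn1a was 29.4 times higher. Scn9a and Scn7a, separated by 38462 bases, differed 1.10-fold. On chromosome 9, Scn10a and Scn11a are 34436 bases apart, and both were low. On the same chromosome Scn2b and Scn4b are 8324 bases apart, and Scn4b was 3.65 times higher. On chromosome 7, Cacng7, Cacng8 and Cacng6 follow each other, and the level dropped 13.3-fold from Cacng7 to Cacng8 and 455-fold from Cacng8 to Cacng6. On chromosome 11, Cacng4 was 105 times higher than Cacng1, 15834 bases away. In all, 4 of the 13 pairs differed more than 10-fold and 3 less than 2-fold. Pairs that lie farther apart were not compared.

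**Figure D5:**
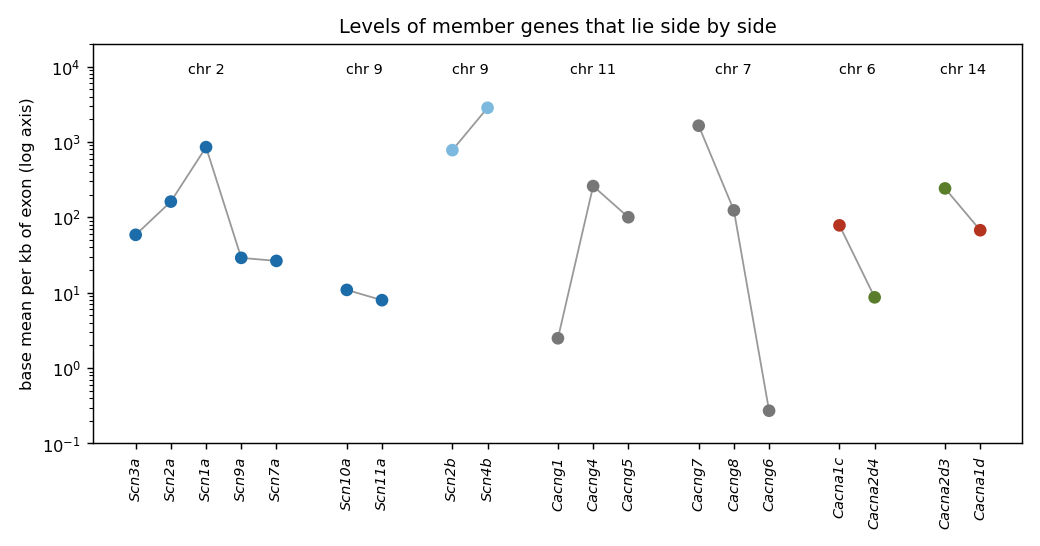
Level, as base mean per kb on a log axis, of member genes that lie near each other in the genome, in chromosomal order. Lines join neighbouring members of a cluster, whatever other genes may lie between them, and colours mark subunit classes. Scn1a is the peak of the chromosome 2 cluster at 855.5 per kb, and Cacng6 the low end of the chromosome 7 cluster at 0.272 per kb.

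Reads could be shared between related genes only to a small extent. Runs of 100 bases, the length of the reads, were searched in all annotated transcripts, and reads that map to several places were dropped by the authors. Runs shared with another channel gene were found in Scn1a, Scn2a, Scn3a and Scn9a, which share them among themselves. They were 0.876% of the runs of Scn1a and 1.03% of those of Scn2a. In Scn3a and Scn9a, 2.22% and 1.56% of runs were shared with these genes or with the antisense gene Gm13629. Exons overlapped those of another gene in 11 members, in 10 of them on the opposite strand. The overlap was above 10% of the exon length in Cacnb4 and in Cacna1s, where it reached 19.98%. If the strand kept by the library kit was not used in counting, reads of such a gene and of its partner cannot be told apart.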

How the data were processed

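RNA of 10 spinal cords (5 WT, 5 SOD1-G93A) was sequenced by the authors, who trimmed reads, mapped them to mm10 with HISAT2 2.1.0, counted uniquely mapped reads with featureCounts 2.0.2 and compared genotypes with DESeq2. The deposited signal is the base mean, the mean over the 10 libraries of counts divided by size factors by the authors. The same table holds 5 columns of the authors' own comparison (log2 fold change, its standard error, Wald statistic, p-value and adjusted p-value), which were not used, so no test was run. Counts of single libraries were not analysed here.

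The smallest base means recur at 10 values, each being what 1 read is worth in a library (716 genes with 1 read). These gave 10 size factors from 0.840 to 1.15, which cannot be tied to named libraries, and the counting SE. The recovery was tested on simulated data of 25000 genes and returned 10 of 10. Levels are base means per kb of summed exons in GENCODE M21, where 96.3% of symbols matched, since it was the annotation with exons; 108 symbols with several genes were left out. Alternatives were no length, the longest transcript, the coding sequence, a background of at least 10 base mean and a background of all gene types. Identities are from global alignments (Biopython 1.88, BLOSUM62) of translated coding sequences, with gaps at the ends not penalised. They are percents of the aligned residues, which leaves gaps out. Cacng8 has no complete coding sequence in the annotation. Members are named with their levels, and partner and marker genes come from fixed lists. The members and lists were chosen with earlier results of these data known. Some genes and sequences are not reported here.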

Additional observations from a re-analysis of the deposited data

How the results depend on the processing

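The count of channel genes at or above the background median was 25 of 40 per kb of summed exons and 20 to 28 under the 5 alternatives. It was 27 with no length, 26 per kb of the longest transcript and 28 against all gene types. Per kb of coding sequence it was 23, and it fell to 20 when the background was limited to base means of 10 or more. A median divides its own background evenly, so 20 of 40 is no excess over it. All counts were within 1.5 times of 25, but that limit also covers a count with no excess. Shares of leading genes moved with the length used. The same counts were divided by other lengths, so counting error plays no part in these shifts. With no length, the share of its class was 39.9% for Scn1a, 32.3% for Cacna1a, 48.1% for Cacna1g, 40.8% for Cacna2d2, 54.5% for Cacnb4 and 53.3% for Cacng7. Per kb of the longest transcript these shares were 45.8%, 41.3%, 50.3%, 36.4%, 33.8% and 66.0%, and per kb of coding sequence 39.6%, 31.3%, 46.8%, 39.6%, 58.1% and 57.3%. The ratio of summed beta to alpha level of the sodium channels was 1.07 with no length, 3.28 per kb of the longest transcript and 9.52 per kb of coding sequence. That of auxiliary to pore-forming calcium channel genes, 3.38 per kb of summed exons, was 1.37 with no length and 6.58 per kb of coding sequence. Per kb of summed exons, the gamma genes, most of them TARPs, gave 2544 of the 4275 of summed calcium auxiliary level. No paired analysis was possible because only values pooled over the libraries were used, and for the same reason no replicate could be left out. Depth limits the precision of Cacng6 and Cacng1, with counting SEs of 43.2% and 17.96% of their levels.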

Other observations

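The exons that encode the pore loops differ between the channel groups. In all 10 sodium channel genes and all 7 HVA calcium channel genes, the 27-base stretch around the filter codon of repeat III is split over 2 exons, with introns of 185 to 7174 bases and of 452 to 2207 bases. In the 3 T-type genes that stretch lies within a single exon. The stretches of repeats I, II and IV lie within a single exon in all 20 genes.

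Scn7a also departs from the other sodium channel genes in the linker between repeats III and IV, which holds the inactivation particle, the short motif that closes the open pore from inside. The capitals below mark its 3 codons, which encode isoleucine, phenylalanine and methionine in 9 genes and end with isoleucine in Scn7a.
Scn8a: ggtcaggacATCTTCATGacagaggaa
Scn7a: ggatcaaacATCTTTATAacagtaaaa
These stretches lie in exon 25 of Scn8a (chr15:101033484-101033510) and exon 23 of Scn7a (chr2:66680936-66680962).

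Promoter sequences from RefSeq (GRCm38.p6, 300 bases around a transcription start) were matched for 30 of the 40 genes. They came to 41 promoters, since some genes have several. The median number of CpG dinucleotides was 16 in the 26 promoters of genes at or above the background median and 7 in the 15 promoters of genes below it, against 7 over all 32851 promoters. Single promoters went against this order. The highest counts of all 41 promoters were 63 and 57, in Cacna1d and Cacna1c, which lie below the median per kb. Both of these promoters lie inside the annotated gene and not at its outermost start. The other promoter of Cacna1d had 4, and the others of Cacna1c had 3 and 7. The promoter of Scn2b, at 781 per kb, had 2. These counts are descriptions, and no test was run on them.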
